A study of Mus musculus with 27 samples.

Results

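Cerebellar tumours driven by Tlx3-cre were set against cerebellar tumours driven by Math1-cre, with 3 arrays in each group, out of 27 arrays in the series. The 6 arrays were chosen by their sample titles. Tlx3-cre:SmoM2 and Math1-cre:SmoM2 mice share SmoM2, an activated form of Smoothened that signals without Hedgehog ligand, and differ in the promoter that drives the recombinase. The labels name no age, sex, strain background, animal or tumour stage for either group, and they call the arrays biological replicates without tying them to animals. The p-values therefore cover only the variation among these 6 arrays. The other 21 arrays held tumours of Olig2-tva-cre:SmoM2 mice, of hGFAP-cre:SmoM2 mice and of Ptc1+/- mice, and cerebellar tissue without tumour. They served to place levels, to set the floor and filter, for correlations between arrays and in alternative fits over all 27 arrays. By its title, the series concerns the part that becoming a granule neuron precursor plays in medulloblastoma driven by Hedgehog signalling. The question of this comparison is how far the tumours of a pair of drivers differ.

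Granule neuron precursors are the dividing cells of the external granule layer of the cerebellum, and Sonic hedgehog from Purkinje cells keeps them in division. Smoothened passes the signal on when Patched no longer holds it back, and Gli transcription factors then switch on targets such as Gli1 and Ptch1. Math1, whose gene symbol is Atoh1, is the transcription factor that specifies the granule neuron lineage, and Tlx3 is a homeobox transcription factor of excitatory neurons in the hindbrain and spinal cord.

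Values are MAS5 signals of a whole-genome mouse array, scaled so that every array had the same 2% trimmed mean, raised to a floor of 3.37 and given on the log2 scale. A level of 1 more is a doubling. The number of arrays limits the precision. Before scaling, the trimmed mean signal was 168.8, 205.96 and 179.36 on Tlx3 arrays 1 to 3, against 159.52, 149.64 and 140.13 on Math1 arrays 1 to 3. These did not overlap, so array brightness and driver cannot be told apart. The share of probe sets at the floor after scaling did not overlap either, at 23.5%, 25% and 22.9% on Tlx3 arrays 1 to 3. It was 21.1%, 19% and 19.5% on Math1 arrays 1 to 3, and at most 23.4% on the other 21 arrays. The mean log2 ratio of 3' to 5' control probe sets, a sign of RNA quality, was 0.37, 0.04 and 0.44 on Tlx3 arrays and 0.11, -0.07 and 0.46 on Math1 arrays, and it overlapped. Xist, expressed from the inactive X chromosome, stood at 4.95, 12.31 and 12.29 on Tlx3 arrays and at 5.72, 5.58 and 12.38 on Math1 arrays, and the Y-linked genes Kdm5d, Eif2s3y and Uty ran the opposite way. High Xist was thus found on 2 Tlx3 arrays and 1 Math1 array.

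Of 14 measured markers of granule neuron precursors, 11 stood higher on all 6 Tlx3 and Math1 arrays than on every array of tissue without tumour. The exceptions were the zinc finger genes Zic1, with means of 12.69 (Tlx3 tumours), 12.82 (Math1 tumours) and 12.47 (tissue without tumour), and Zic2, with means of 7.65, 7.47 and 7.98 in that order, and the neuronal differentiation factor Neurod1, with 12.17, 11.76 and 12.31. Atoh1 stood at 9.54, 9.85 and 9.99 on Tlx3 arrays and at 10.09, 10.22 and 9.89 on Math1 arrays, against 5.32 ± 0.77 (SD, n = 6) in tissue without tumour. The summed signal of the 14 markers was 14.88, 14.77 and 14.80 on Tlx3 arrays and 14.62, 14.75 and 14.83 on Math1 arrays, as the log2 of the sum. Bright genes weigh most in such a sum. Sox11, Zic1 and Neurod1 were the brightest of the 14 on all 6 arrays, and Zic1 and Neurod1 are among the exceptions above. Of the 14, 1 stood higher and 1 lower in Tlx3 tumours without overlap, beside 16% of all genes tested in either direction, and limma called none. Pax6, a transcription factor of the lineage, stood 0.62 higher, and the chemokine receptor gene Cxcr4 differed by -0.45.

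Of 10814 genes tested, none differed between Tlx3 and Math1 tumours at an adjusted p under 0.05 by limma, and the smallest adjusted p was 0.289. An unadjusted p under 0.05 was reached by 1102 genes (10.2%), with 431 (3.99%) higher and 671 (6.2%) lower in Tlx3 tumours. Taking each gene's 3 Tlx3 values against its 3 Math1 values, 1729 genes (16%) had no overlap. Of these 750 (6.94%) stood higher and 979 (9.05%) lower in Tlx3 tumours. Genes higher in Tlx3 tumours were thus 43.4% of those without overlap, while they were 51.5% under quantile normalisation, 90.6% with arrays scaled to a common median and 89.6% without scaling. A gene was tested if it passed a signal of 45.6, or 5.51 on the log2 scale, on at least 3 of the 6 arrays. A gene below that level on all arrays of 1 group therefore passed only through the group where it was high and had to be separated. This was so for 146 genes below it on all Tlx3 arrays and 7 below it on all Math1 arrays, and 743 higher and 833 lower genes without overlap remained beside them. Separation by a wide margin was rare, since 111 genes (1.03%) had no overlap and means at least 2-fold apart, 27 of them higher (0.25%) and 84 lower (0.777%). Leaving out those fixed by the filter, 22 higher and 46 lower remained. Differences were small next to the error. The median absolute log2 difference was 0.194, while the median half-width of the 95% interval was 0.487. For 8864 genes (82%) that interval lay within 1 log2 unit of 0, so that a 2-fold difference in either direction fell outside it. With 3 arrays against 3, an exact permutation test of a single gene cannot go below a two-sided p of 0.1.

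Arrays of different drivers correlated nearly as closely as arrays of the same driver. Pearson correlations over the genes tested were 0.943 to 0.961 among Tlx3 arrays and 0.938 to 0.957 among Math1 arrays, against 0.924 to 0.955 between a Tlx3 and a Math1 array. Genes are not independent replicates, so these describe the arrays. Tlx3 array 3 and Math1 array 1 correlated at 0.955, more closely than Tlx3 arrays 1 and 3 at 0.943. Driver accounted for 28.3% of the sum of squares among the 6 arrays, where equal shares for each degree of freedom would give 20%. In an exact permutation test, 2 of the 10 distinct splits of the arrays reached at least that share (one-sided p = 0.2, smallest possible 0.1). Tlx3 and Math1 arrays also stood at similar distances from the other groups. Their median correlations were 0.881 and 0.880 with Olig2 tumours, 0.908 and 0.906 with hGFAP tumours, 0.875 and 0.888 with Ptc1+/- tumours, and 0.689 and 0.667 with tissue without tumour.

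The direction of a difference moved with how bright a gene was. The genes were split by mean signal into 4 groups of equal size. In the dimmest group 80 stood higher and 518 lower in Tlx3 tumours without overlap, with a median log2 difference of -0.163. In the brightest group 280 stood higher and 69 lower, with a median of 0.084. The 2 groups between held 169 higher against 268 lower and 221 higher against 124 lower. After quantile normalisation, which gives every array the same distribution of signals, the dimmest group held 231 higher and 258 lower and the brightest 148 higher and 117 lower. The whole count then became 1541 of 11121 genes (13.9%), with 794 (7.14%) higher and 747 (6.72%) lower. Of 1723 genes separated under the trimmed mean and tested both ways, 1210 stayed separated in the same direction. Of the 111 genes at least 2-fold apart, 57 stayed so, 26 of the 27 higher and 31 of the 84 lower in Tlx3 tumours.

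**Figure D1:**
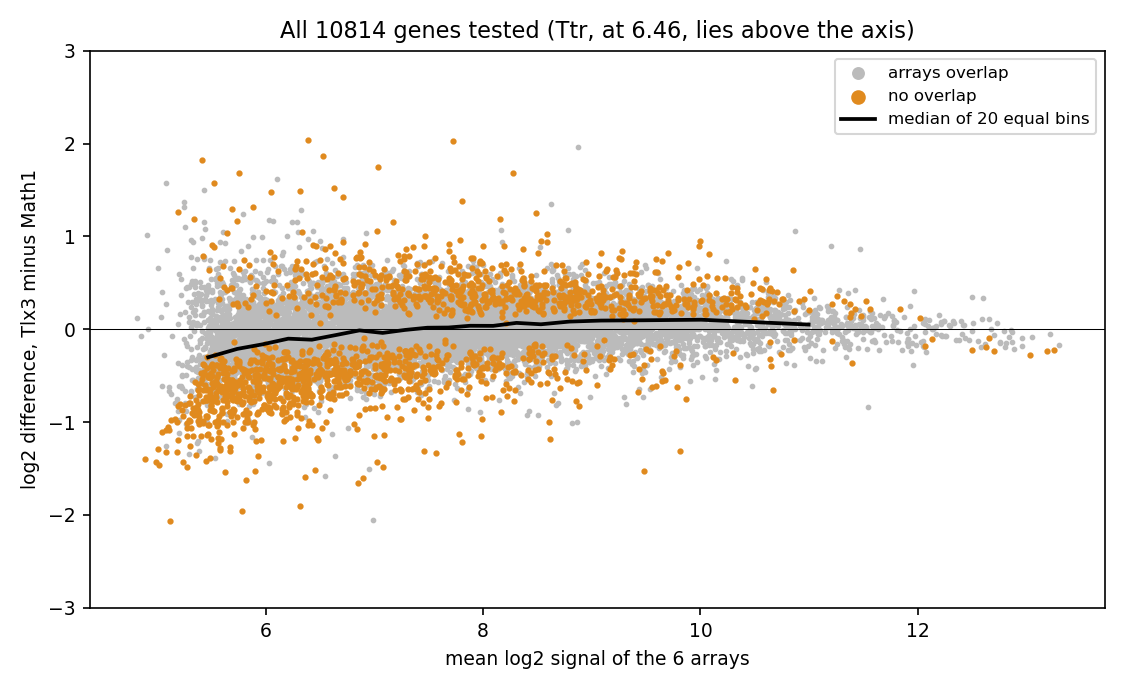
Log2 difference (Tlx3 minus Math1) against mean log2 signal for the 10814 genes tested, with genes whose arrays did not overlap in orange and the median of 20 bins of equal gene number as a line. The line lies below 0 at low signal and slightly above 0 at high signal, and the separated genes at the left are mostly lower in Tlx3 tumours.

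The genes that named the drivers were read next, and none was called. Tlx3 stood at 6.72, 6.93 and 7.08 in Tlx3 tumours, against 7.62, 7.59 and 7.44 in Math1 tumours. Its signal was therefore lower on every array of the tumours that carry its name (difference -0.64, SE 0.19, limma adjusted p = 0.335). Olig2, a transcription factor of oligodendrocyte precursors that is also found in neural progenitors, stood at 7.49, 7.58 and 7.44 in Tlx3 tumours, against 8.27, 8.27 and 8.08 in Math1 tumours, and did not overlap either (difference -0.70, SE 0.17, limma adjusted p = 0.314). Atoh1 overlapped, with a difference of -0.27. Gfap, the intermediate filament of astrocytes, overlapped on its brightest probe set with a difference of 0.55, while its other 2 measured probe sets stood 0.52 and 1.47 higher in Tlx3 tumours without overlap. Smo, the gene of Smoothened, differed by 0.02. Mxi1, read with them as a design gene, differed by 0.13. The position of these probe sets against the recombinase constructs is not known here, so none of these signals tests a tumour's driver.

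Across the series the level of Tlx3 in Tlx3 tumours lay within the range of the other groups. Its mean was 6.91 ± 0.18 (SD, n = 3) in Tlx3 and 7.55 ± 0.10 (SD, n = 3) in Math1 tumours, beside 7.25 ± 0.69 (SD, n = 7) in Olig2 tumours, 6.39 ± 0.81 (SD, n = 6) in hGFAP tumours, 6.74 ± 0.39 (SD, n = 2) in Ptc1+/- tumours and 5.93 ± 1.19 (SD, n = 6) in tissue without tumour. The order from high to low was Math1, Olig2, Tlx3, Ptc1+/-, hGFAP and tissue without tumour, and each neighbour in that order lay within 1 SD of the more variable one.

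No readout of Hedgehog signalling was called, and 4 of them were slightly lower on every Tlx3 array. Gli1, the transcription factor most used as a readout of the pathway, stood at 9.17, 9.20 and 8.76 in Tlx3 tumours, against 9.31, 9.33 and 9.46 in Math1 tumours. All 3 Tlx3 values were the lower ones, by 0.32 on average (SE 0.18, limma adjusted p = 0.582). Ptch1, the gene of the receptor Patched, differed by -0.19 with overlap on its brightest probe set. Another of its probe sets stood 0.94 lower in Tlx3 tumours without overlap. Of the 11 Hedgehog output genes tested, 0 stood higher and 4 lower without overlap, beside 9.05% of all genes that stood lower, and the list had a median of -0.32 beside 0.01 over all genes, and none was called by limma (at an unadjusted p under 0.05, 0 higher and 1 lower). The 4 were Gli1, the secreted Wnt antagonist Sfrp1 (-0.37), the cytoskeletal adaptor Pdlim3 (-0.39) and the G1 cyclin Ccnd2 (-0.11). Hhip, which binds and removes Hedgehog ligand, differed by -0.49 with overlap, and the survival gene Bcl2 by 0.24, the highest of the list.

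The size and separation of these small differences depend on the scaling, and for some genes the direction does too. Across the 27 alternatives run, Gli1 ran from -0.40 to -0.02 and Sfrp1 from -0.43 to -0.07. Pdlim3 ran from -0.47 to -0.09 and Hhip from -0.70 to -0.19. Ptch1 (-0.57 to 0.11), Ccnd2 (-0.13 to 0.19) and Bcl2 (-0.04 to 0.55) changed sign. With each array scaled to a common median, the median of all genes moved to 0.27, Gli1 stood at -0.06 and Ptch1 at 0.07. Relative to that shift the Hedgehog output list had a median of -0.33, close to its value under the trimmed mean. Under quantile normalisation 4 of 11 were again lower and 0 higher, but with median scaling 1 of 11 stood higher and 0 lower, and without scaling 1 of 12 higher and 0 lower.

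Among 14 tested pathway components, 1 stood higher and 2 lower in Tlx3 tumours without overlap, beside 16% of all genes in either direction. Shh, the Sonic hedgehog ligand itself, stood at 5.17, 4.38 and 5.47 in Tlx3 tumours, against 6.61, 6.10 and 7.18 in Math1 tumours. The groups were separated by 1.63 on average in the direction of lower Tlx3 values (SE 0.36, unadjusted p = 0.000843, limma adjusted p = 0.314). Shh lay below the filter on all 3 Tlx3 arrays, so it passed only through the Math1 arrays and had to be separated. These are dim signals, in the range where most separated genes were lower in Tlx3 tumours. The cilium transport gene Ift88 stood 0.68 lower and Spop, an adaptor of ubiquitin ligases that act on Gli proteins, 0.46 higher. Gli3, the main repressor of the Gli family, differed by 0.51 with overlap.

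Genes were named as those of smallest unadjusted p among the separated ones, 12 in each direction, since none was called. All 24 had limma adjusted p-values between 0.289 and 0.314, and all 24 stayed separated in the same direction after quantile normalisation. They were picked for separation on these same arrays, so renormalising the same signals is no independent test of them. Of the 24, 3 (Th, Abca2 and Zfp874a) passed the filter only through 1 group and had to be separated. The 24 genes had 18 further probe sets above the filter, of which 16 had the same sign and 10 were separated in the same direction.

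**Figure D2:**
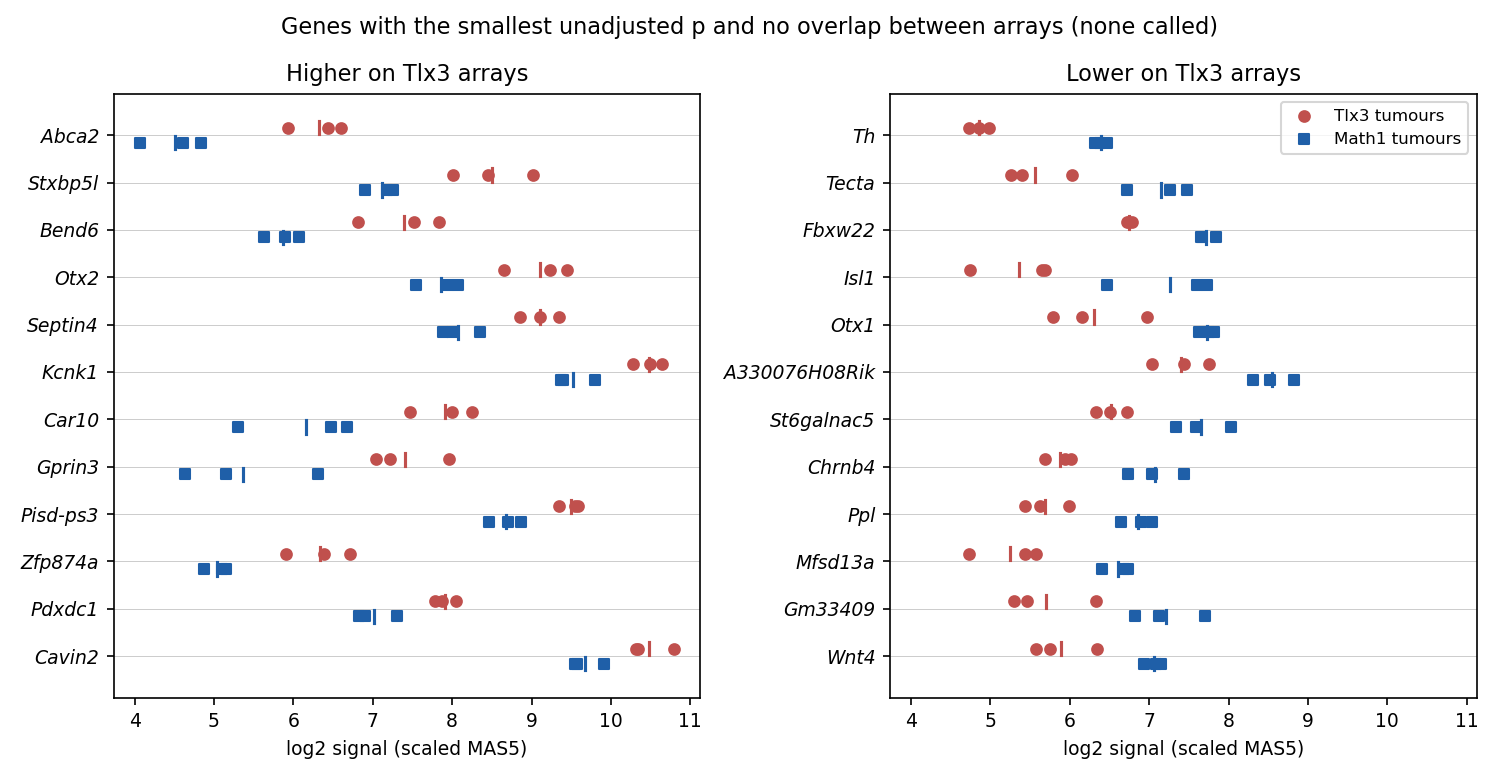
Log2 signal of the 24 named genes on each of the 3 Tlx3 arrays (circles, upper in each row) and 3 Math1 arrays (squares, lower in each row), with a short line at each group mean. No gene was called, and in each row the circles and squares do not overlap.

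Of the genes higher in Tlx3 tumours, Otx2 is the best known in medulloblastoma. It encodes a homeobox transcription factor that patterns the anterior brain and is present in granule neuron precursors. It stood at 9.45, 9.23 and 8.66 in Tlx3 tumours, against 7.95, 7.55 and 8.07 in Math1 tumours. The lowest Tlx3 array lay above the highest Math1 array, and the difference was 1.25 (95% interval 0.74 to 1.77, unadjusted p = 0.000245, limma adjusted p = 0.289). Otx2 averaged 9.88 (Olig2 tumours), 8.51 (hGFAP tumours), 8.78 (Ptc1+/- tumours) and 6.15 (tissue without tumour), so Math1 tumours had the lowest mean among the tumour groups.

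Its relative Otx1 stood the other way. It was measured at 5.79, 6.97 and 6.15 in Tlx3 tumours, against 7.76, 7.82 and 7.63 in Math1 tumours, with no overlap (difference -1.43, 95% interval -2.05 to -0.81, limma adjusted p = 0.289). Otx1 averaged 3.97 (Olig2 tumours), 5.41 (hGFAP tumours), 4.36 (Ptc1+/- tumours) and 3.39 (tissue without tumour). Otx1 was at the floor on 4 of 7 Olig2 arrays and on 5 of 6 arrays of tissue without tumour. Tlx3 and Math1 tumours thus had the highest group means of Otx1 in the series.

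Isl1, a LIM homeobox factor of motor and sensory neurons, stood at 5.68, 4.75 and 5.65 in Tlx3 tumours, against 7.73, 6.47 and 7.60 in Math1 tumours. Both of its measured probe sets were separated, by -1.91 (limma adjusted p = 0.289) and -1.83. It was at the floor on all 6 arrays of tissue without tumour and on 5 of 6 hGFAP arrays, and its mean in Olig2 tumours was 5.49. Th, which encodes tyrosine hydroxylase, the rate-limiting enzyme of catecholamine synthesis, had the smallest unadjusted p of the comparison. It stood at 4.85, 4.99 and 4.73 in Tlx3 tumours, against 6.38, 6.32 and 6.47 in Math1 tumours. Th lay below the filter on all 3 Tlx3 arrays and so passed only through the Math1 arrays. Its values were tight in both groups and differed by -1.54 (SE 0.25, unadjusted p = 7.89e-05, limma adjusted p = 0.289). Tissue without tumour had a mean Th signal of 4.92, close to that of Tlx3 tumours.

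**Figure D3:**
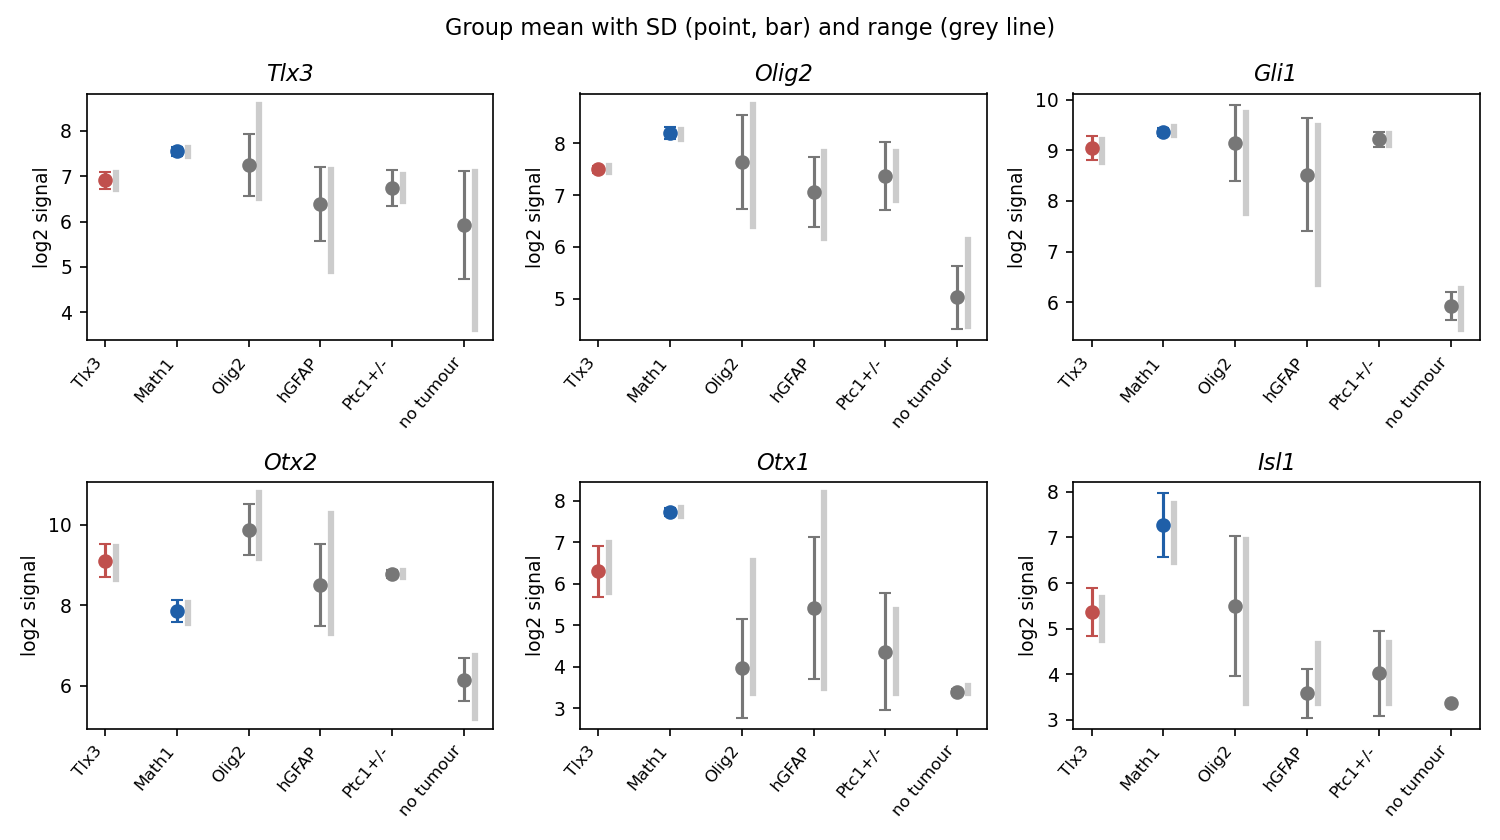
Mean log2 signal with SD (point and bar) and range (grey line) of Tlx3, Olig2, Gli1, Otx2, Otx1 and Isl1 in Tlx3 tumours (n = 3), Math1 tumours (n = 3), Olig2 tumours (n = 7), hGFAP tumours (n = 6), Ptc1+/- tumours (n = 2) and tissue without tumour (n = 6). Otx1 and Isl1 have their highest means in Math1 tumours, and Otx2 has its lowest tumour mean there.

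Gprin3, of a family of G protein-regulated neurite outgrowth proteins, had the largest difference of the 12. It stood at 7.97, 7.22 and 7.05 in Tlx3 tumours, against 4.64, 6.32 and 5.15 in Math1 tumours (difference 2.04, SE 0.41). Abca2, a lipid transporter abundant in oligodendrocytes, stood at 5.93, 6.60 and 6.44 in Tlx3 tumours, against 4.07, 4.84 and 4.61 in Math1 tumours (difference 1.82). It lay below the filter on all 3 Math1 arrays and passed only through the Tlx3 arrays. Tissue without tumour had a mean Abca2 signal of 8.42, above both tumour groups.

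The same placement, with Tlx3 tumours between Math1 tumours and tissue without tumour, held for Stxbp5l (1.38), a syntaxin-binding inhibitor of vesicle release, for Bend6 (1.52), a nuclear antagonist of Notch signalling, for the cytoskeletal GTPase Septin4 (1.02) and for Kcnk1 (0.95), a background potassium channel. It held as well for Car10 (1.75), a carbonic anhydrase relative without catalytic activity that binds neurexins, although another probe set of Car10 stood 0.63 lower in Tlx3 tumours. Pisd-ps3, a pseudogene of phosphatidylserine decarboxylase whose probe set can bind related transcripts, stood 0.82 higher. The zinc finger gene Zfp874a stood 1.29 higher, and it too was below the filter on all 3 Math1 arrays. Cavin2, which coats caveolae, stood 0.81 higher, with all 3 of its probe sets separated in that direction, while its mean in tissue without tumour was 6.83, below both tumour groups.

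Tecta, a component of the tectorial membrane of the inner ear, differed by -1.59, and the nicotinic receptor subunit gene Chrnb4 by -1.19. Wnt4, a secreted Wnt ligand, differed by -1.17. St6galnac5, a brain sialyltransferase, differed by -1.14, and 2 further probe sets of it, 1 of them below the filter, were separated the same way. Fbxw22, an F-box protein gene, was tight in both groups, at 6.72, 6.78 and 6.75 in Tlx3 tumours, against 7.66, 7.84 and 7.67 in Math1 tumours. The junction protein gene Ppl (-1.17), the transporter gene Mfsd13a (-1.36) and the transcripts Gm33409 (-1.52) and A330076H08Rik (-1.15) completed the 12, and second measured probe sets of A330076H08Rik and Mfsd13a differed by -0.10 and -0.08 with overlap.

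A test of every probe set above the filter, named or not, was added after the gene test had been seen. It covered 22094 probe sets, and 4 (0.0181%) passed an adjusted p under 0.05 by limma, all lower in Tlx3 tumours. The largest difference was on a probe set of Pdxdc1 (1419327_at), a gene of the pyridoxal-dependent decarboxylase family. It stood at 5.50, 4.23 and 5.21 in Tlx3 tumours, against 8.73, 8.62 and 8.45 in Math1 tumours. It fell by 3.62 on the log2 scale (SE 0.31, 95% interval -4.30 to -2.94, limma adjusted p = 0.00211), and with all 27 arrays in the fit it was the only probe set called (adjusted p = 0.00535). It lay below the filter on all 3 Tlx3 arrays, so it entered the test only through the Math1 arrays, and the size of the difference is set against dim signals. The 3 Math1 arrays stood apart from the whole series on this probe set, since the other 24 arrays lay between 3.37 and 6.30.

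The other probe sets of Pdxdc1 did not share that difference. The probe set that stands for the gene above (1452705_at) stood at 7.88, 7.78 and 8.06 in Tlx3 tumours, against 7.30, 6.83 and 6.90 in Math1 tumours, a separation of 0.89 in the opposite direction. Probe set 1436372_a_at differed by 0.23 with overlap, and the last one, below the filter, by -0.04. On 1452705_at the group means of the other tumours and of tissue without tumour lay between 7.69 and 8.07. The 3 Math1 arrays were the lowest of the series there, with the next array at 7.45.

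The other 3 probe sets called had no gene name in the annotation. Probe set 1428301_at stood at 10.04, 9.65 and 9.74 in Tlx3 tumours, against 11.73, 11.95 and 11.61 in Math1 tumours (fell by 1.96, limma adjusted p = 0.00211). Probe set 1452731_x_at fell by 1.89 (limma adjusted p = 0.00211) and probe set 1439386_x_at fell by 2.37 (limma adjusted p = 0.0266). Probe sets marked _x_at, like that of Pisd-ps3, can bind related transcripts. Both 1428301_at and 1452731_x_at had their lowest value of the series on array 3 of tissue without tumour (8.19 and 7.06). Whether the unnamed probe sets read separate transcripts was not tested. On 1428301_at the Tlx3 arrays lay within the range of tissue without tumour (8.19 to 10.02) apart from array 1, and the Math1 arrays within that of Olig2 tumours (10.37 to 11.96). These 3 were not called with all 27 arrays in the fit, where the adjusted p was 1 for each. Leaving out each array in turn, 3 or all 4 of the probe sets were called again, and the adjusted p of the Pdxdc1 probe set ran from 0.00223 to 0.0174. The number called was 7 without Tlx3 replicate 3 and 8 without Math1 replicate 2. The calls also depended on the filter. With probe sets kept by their mean over the 6 arrays, or by at least 3 of all 27 arrays, the same 4 were called and no other. Without any filter 4 probe sets of 45037 were called higher and 29 lower, and of the 4 above only 1452731_x_at was among them (limma adjusted p = 0.0478), while the Pdxdc1 probe set had an adjusted p of 0.114.

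**Figure D4:**
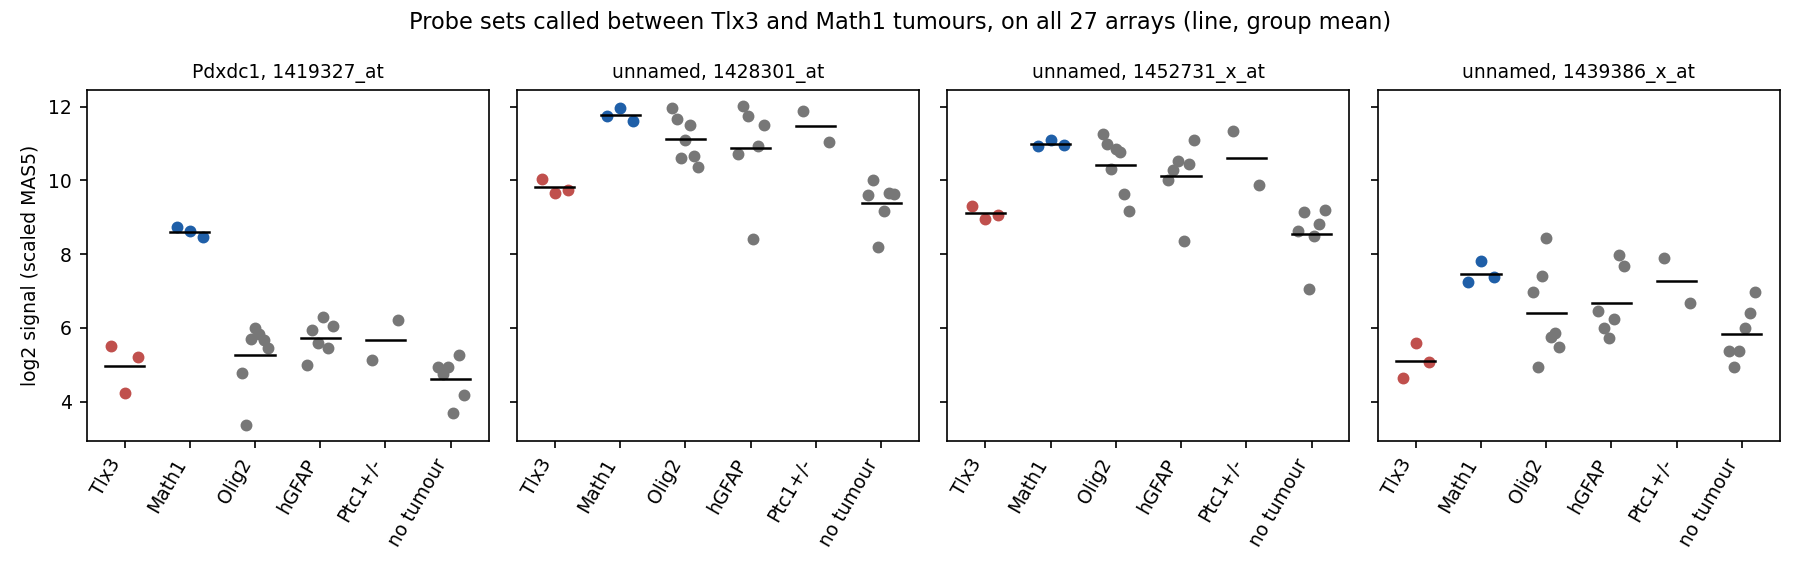
Log2 signal on all 27 arrays of the 4 probe sets called between Tlx3 and Math1 tumours, by group, with a line at each group mean. The Math1 arrays stand alone on the Pdxdc1 probe set, while on the unnamed probe sets they lie among the other tumours and the Tlx3 arrays lie low.

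Gene lists for cell types and pathways held 638 genes in 40 lists, of which 457 were tested. Of these, 34 stood higher and 38 lower in Tlx3 tumours without overlap (15.8%), beside 16% of all genes, and limma called none. Of the 72, 7 passed the filter only through 1 group and had to be separated, namely Shh, Des, Egr2, Epha4, Msx1 and Xaf1, below it on all Tlx3 arrays, and Irx2, below it on all Math1 arrays. The lists below are described by their counts and medians. These are read beside a median of 0.01 over all genes, with 6.94% higher and 9.05% lower without overlap.

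Astrocyte and synaptic genes had separated members only on the higher side. So did other lists, such as oxidative phosphorylation with 2 of 19 higher and 0 lower. Of 20 astrocyte and Bergmann glia genes, 4 stood higher and 0 lower without overlap (20%, beside 16% of all genes), with a median of 0.23. Gjb6, a gap junction gene of astrocytes, stood at 6.72, 8.02 and 7.51 in Tlx3 tumours, against 6.58, 6.18 and 5.24 in Math1 tumours (difference 1.42, limma adjusted p = 0.33). The other 3 were its relative Gja1 (0.73), the glycolytic gene Aldoc (0.65), a marker of astrocytes and of a subset of Purkinje cells, and Aldh1l1 (0.35). The lipoprotein gene Apoe stood 0.87 higher with overlap, while the GABA transporter gene Slc6a11 (-0.60), glutamine synthetase Glul (-0.20) and Hopx (-0.18) differed the other way with overlap. The summed signal of this list was 14.25, 14.33 and 14.34 on Tlx3 arrays, against 14.17, 13.96 and 13.89 on Math1 arrays, and it did not overlap. Bright genes weigh most in such a sum. Apoe, the brightest of the list on every Tlx3 array, stood at 12.23, 11.78 and 11.69 there, against 10.81, 10.57 and 11.72 on Math1 arrays. The separation of the sum therefore does not show a shift shared by the list, and the sum without Apoe was not worked out. In bulk tumours, more cells of a type and more RNA per cell cannot be told apart.

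Of 17 synaptic vesicle genes, 4 stood higher and 0 lower (23.5%, beside 16% of all genes), with a median of 0.23. They were the vesicle proteins Sv2b (0.74) and Sv2a (0.70), the vesicular glutamate transporter Slc17a6 (0.62) and the fusion ATPase Nsf (0.58), which stood at -0.07 when all its probe sets were averaged. Mature granule neuron genes had a median of 0.42 over 11 genes, with 1 separated, the extracellular matrix gene Reln (0.31), which stood at -0.01 when all its probe sets were averaged. With overlap, the protocadherin relative Fat2 differed by 1.28 and the glutamate receptor subunit gene Grin2c by -1.44. The summed signal of the mature granule neuron list was highest on Tlx3 array 2, at 13.28. It was 12.91 and 12.72 on the other Tlx3 arrays, against 12.5, 12.86 and 12.75 on Math1 arrays. The median of 0.42 therefore does not show a shift shared by all Tlx3 arrays. Of 16 genes of migrating and maturing granule neurons, 2 stood higher and 0 lower, Plxna2 (0.60) and Sema6a (0.45), a receptor and ligand pair that guides granule cell migration. Their median was 0.19. The Purkinje cell list had 1 of 10 higher, Dner (0.52), and the interneuron list 0 of 4 in either direction. Tlx3 array 2 also had the highest Purkinje cell sum, at 12.51 against 11.72 to 11.88 on the other Tlx3 and Math1 arrays. The same held for the interneuron sum, at 10.41 against 8.96 to 9.41. The oligodendrocyte sum was 12.46 on Tlx3 array 2, against 10.91 to 11.54 on the others.

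Oligodendrocyte precursor and mural genes had separated members only on the lower side, where 9.05% of all genes stood. So did the ribosomal protein list, with 0 of 22 higher and 2 lower. Of 10 oligodendrocyte precursor genes, 0 stood higher and 3 lower, Olig2, the proteoglycan gene Cspg4 (-0.47) and the receptor phosphatase gene Ptprz1 (-0.34), with a median of -0.29. Of 13 mural, meningeal and mesenchymal genes, 0 stood higher and 4 lower, with a median of -0.44. They were the muscle intermediate filament gene Des, at 4.70, 4.88 and 5.09 in Tlx3 tumours, against 5.78, 6.61 and 5.71 in Math1 tumours, and Col4a1 (-0.53), Acta2 (-0.49) and Cspg4. The summed signal of this list was 11.05, 11.18 and 11.18 on Tlx3 arrays, against 11.72, 11.35 and 11.27 on Math1 arrays, without overlap. After quantile normalisation 0 of the 13 stood higher and 2 lower. Des passed the filter only through the Math1 arrays. With median scaling 0 of the 13 mural genes stood higher and 1 lower, and of the 10 oligodendrocyte precursor genes 1 and 1. Endothelial genes had 0 of 7 separated. With arrays scaled to a common median, and relative to the shift of all genes, the list medians were 0.23 for astrocyte, 0.23 for synaptic, -0.29 for oligodendrocyte precursor and -0.44 for mural genes.

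**Figure D5:**
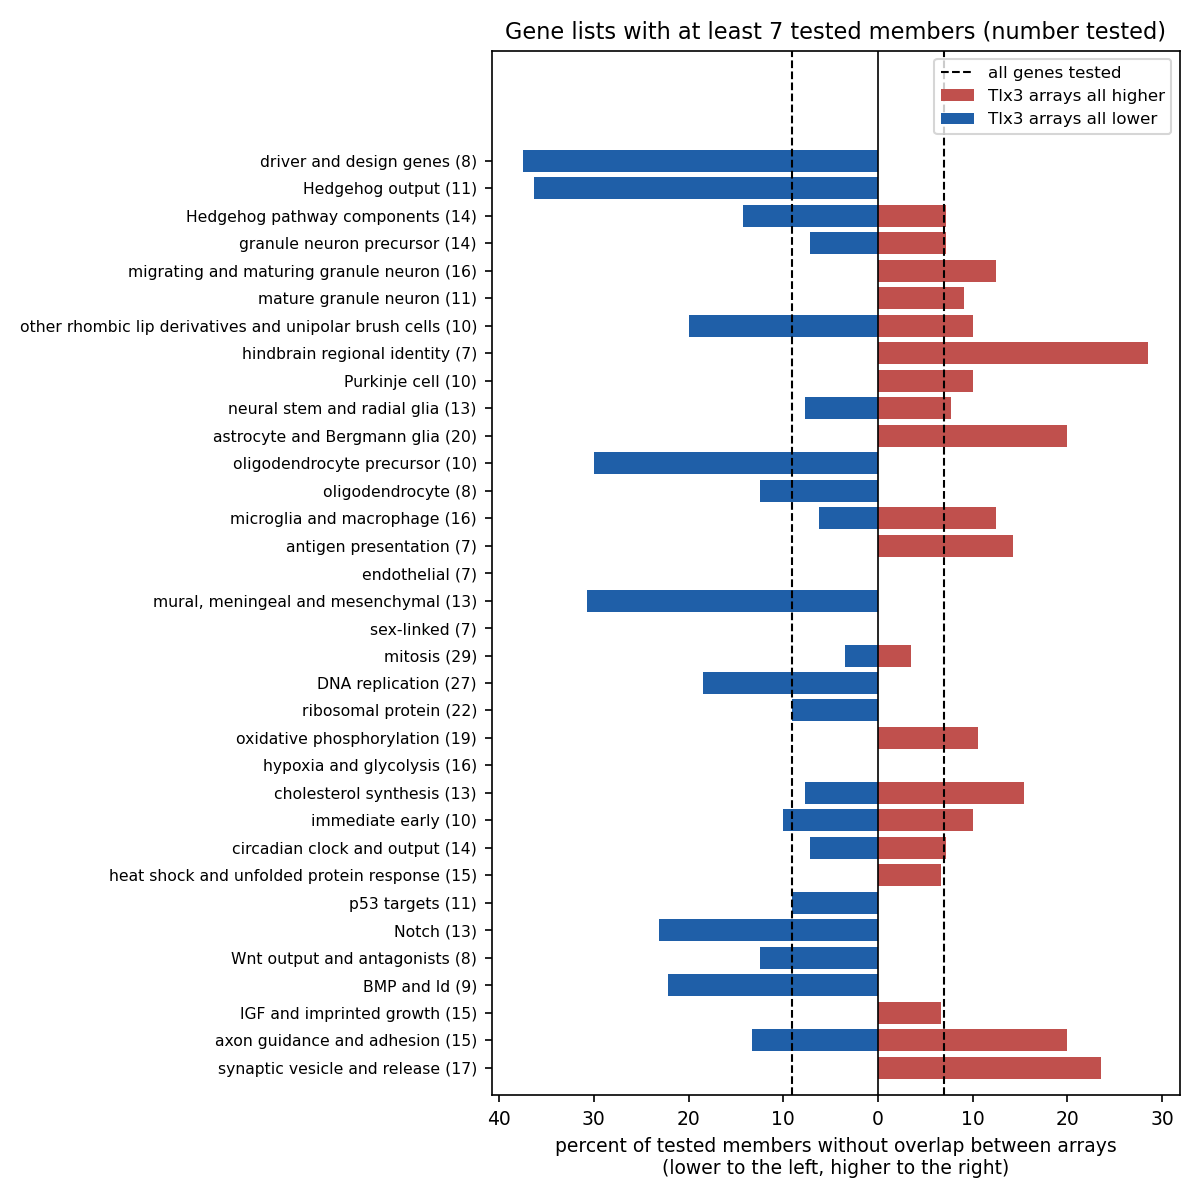
Percent of each list's tested members whose Tlx3 arrays all lay above (right) or all below (left) the Math1 arrays, for lists with at least 7 tested members, whose number stands in brackets. Dashed lines give the shares over all genes tested, 6.94% higher and 9.05% lower.

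Transthyretin, the product of Ttr and the main secreted protein of the choroid plexus, had the largest difference of any gene tested. Ttr stood at 12.56, 10.91 and 12.37 in Tlx3 tumours, against 3.59, 9.52 and 3.37 in Math1 tumours. The groups did not overlap, but Math1 array 2 lay far above the other Math1 arrays, and 2 of the Math1 values lay at the floor or next to it, so the size of the difference depends on the floor. It was 6.46 here, 6.73 with a floor at the 10th percentile and 5.93 with one at the 30th. The difference of 6.46 had an SE of 2.00 (limma adjusted p = 0.437). Without Math1 replicate 2, with the 2 Math1 values at or next to the floor left, it was 8.47 and passed (limma adjusted p = 0.000333). Of 11 choroid plexus genes 4 were tested, and Otx2, on this list as well, was the other separated one. The potassium channel gene Kcnj13 differed by -0.09 and Clic6 by -0.04, both with overlap. The genes Folr1, Kl, Aqp1, Enpp2, Cldn1, F5 and Slc4a5 did not pass the filter. None of the 9 ependymal genes did. The summed signal of the 4 choroid plexus genes was 12.75, 11.44 and 12.52 on Tlx3 arrays, against 8.77, 10.14 and 8.97 on Math1 arrays. Ttr was the brightest of the 4 on all Tlx3 arrays, so this sum mostly repeats the Ttr values. The part of choroid plexus tissue in these signals, Otx2 included, was not tested.

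No cell division gene was called. Of 29 mitosis genes, 1 stood higher and 1 lower, Cdc20 (0.18) and Ccnb2 (-0.57), with a median of -0.08. Of 27 DNA replication genes, 0 stood higher and 5 lower (18.5%, beside 16% of all genes), with a median of -0.18. The 5 were the cyclin gene Ccne1 (-0.65), the replication factor genes Mcm10 (-0.31) and Gins2 (-0.26), the primase gene Prim1 (-0.29) and Uhrf1 (-0.18), which maintains DNA methylation. After quantile normalisation 7 of the 27 were lower. With arrays scaled to a common median, 2 of 27 stood higher and 0 lower, and without scaling 5 of 28 higher and 0 lower. The list median was then 0.09 with median scaling, below the shift of all genes of 0.27. The ribosomal protein list had a median of 0 over 22 genes, with Rplp0 (-0.09) and Rps2 (-0.23) lower.

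Of 9 BMP and Id genes, 0 stood higher and 2 lower. Bmp7, a BMP ligand, stood at 5.86, 5.46 and 5.69 in Tlx3 tumours, against 6.87, 6.43 and 6.67 in Math1 tumours (difference -0.99, limma adjusted p = 0.314), and the BMP target Msx1 differed by -0.87. Of 13 Notch genes, 0 stood higher and 3 lower (23.1%, beside 16% of all genes). They were the receptor gene Notch3 (-0.49), the ligand gene Jag1 (-0.44) and the target Hes1 (-0.34). After quantile normalisation 1 Notch gene was lower, and with median scaling 1 of 14 stood higher and 0 lower. With median scaling 1 BMP and Id gene stood higher and 1 lower. Among 15 axon guidance and adhesion genes, 3 stood higher and 2 lower. The ephrin receptor gene Epha3 stood at 7.58, 7.35 and 6.25 in Tlx3 tumours, against 5.85, 5.74 and 5.12 in Math1 tumours (difference 1.49), and its relative Epha4 stood 0.73 lower.

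In the rhombic lip list, Otx2 stood higher and Tlx3 and the nuclear receptor gene Nr2f2 (-0.47) lower, out of 10. Among 7 tested genes of hindbrain regional identity, the Iroquois genes Irx2 (0.64) and Irx5 (0.53) stood higher and none lower. Of 16 microglia and macrophage genes, 2 stood higher and 1 lower. The lipopolysaccharide co-receptor gene Cd14 stood at 6.50, 6.69 and 6.58 in Tlx3 tumours, against 4.66, 6.36 and 3.71 in Math1 tumours (difference 1.68), with a wide spread on the Math1 side. Lyz2 (0.29) and Cx3cr1 (-0.22) were the others. Of 15 heat shock and unfolded protein response genes 1 was separated, the chaperone gene Hspa5 (0.89), and of 15 IGF and imprinted growth genes 1, the zinc finger gene Plagl1 (0.96).

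Of 13 neural stem and radial glia genes, 1 stood higher and 1 lower without overlap, Sox2 (0.27) and Hes1, and of 8 oligodendrocyte genes 0 and 1, Mag (-0.45). The lymphocyte, interferon and p53 target lists had 1 lower member each, Cd8a (-0.63), Xaf1 (-0.81) and Phlda3 (-0.57), of 4, 5 and 11 tested. The antigen presentation list had 1 of 7 higher, H2-K1 (0.29), which stood at -0.17 when all its probe sets were averaged. Of 19 oxidative phosphorylation genes 2 stood higher and 0 lower, Ndufv1 (0.27) and Sdhb (0.19), and of 16 hypoxia and glycolysis genes 0 were separated. The cholesterol synthesis list had 2 higher and 1 lower of 13, Sqle (0.42), Fdft1 (0.16) and Nsdhl (-0.37). The immediate early list had Dusp1 (0.23) higher and Egr2 (-0.48) lower of 10, and the circadian list Clock (0.35) higher and Ciart (-0.47) lower of 14. Of 8 Wnt genes 1 was lower, Sfrp1. Neither the 2 tested blood genes nor the 7 sex-linked genes were separated.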

How the data were processed

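The authors deposited a table of signal intensity on a linear scale for 45101 probe sets, made with MAS5 per the submitters' processing notes. The version, target scaling and genome build are not given in the sources used here. Per the labels' protocols, total RNA came from a Trizol extraction cleaned on RNeasy columns and was made into biotinylated cRNA. No scan dates or detection calls were used here.

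Each of the 27 arrays was scaled to a trimmed mean of 123.61 (2% trimmed at each end), raised to a floor of 10.3, the 20th percentile of the table, and taken to log2. Probe sets were kept when above the table median of 45.6 on at least 3 of the 6 arrays. The annotation listed 35890 probe sets, 34958 with 1 gene and 932 with several, and 9211 stayed unnamed. Symbols were matched by Entrez number for 34754 of them. The probe set with the highest mean over the 6 arrays stood for a gene, and 64 control probe sets were left out. No 2 arrays held identical values.

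Tlx3 and Math1 arrays were compared with limma 3.58.1 in R 4.3.3 (2 group means, empirical Bayes with a trend and a robust fit, two-sided, Benjamini-Hochberg over all genes, called at an adjusted p under 0.05). The fit was tested on simulated data. Genes whose arrays did not overlap were counted. Named genes were the design genes, 12 separated genes in each direction by unadjusted p, and up to 4 extremes of each list. Members separated in a list, other probe sets and the probe set test fall outside that rule and were chosen after their values were seen, as were neighbours of the drivers. The comparison, members and gene lists were chosen with earlier results of these data known. Alternatives changed the scaling, floor, filter, probe set, arrays in the model, moderation, weights, replicate block and covariates, and left out each array in turn.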

Additional observations from a re-analysis of the deposited data

Results flagged for a closer look

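The groups examined were Olig2 tumours (7 arrays), hGFAP tumours (6 arrays) and tissue without tumour (6 arrays). Among the named genes and design genes, 11 of 95 combinations of gene and group held an array set apart from its group by an outlier test. That test flags about 1 in 20 for independent values of normal spread. Values at the floor and combinations that share arrays break this condition, so the 11 cannot be set against that rate. All lie outside the Tlx3 and Math1 tumours, whose groups of 3 cannot be judged this way. In Olig2 tumours these were Bend6 at 8.34 on array 2 (next value 6.55), Cavin2 at 8.87 on array 6 (next 10.32) and Otx1 at 6.56 on array 7 (next 4.24). In hGFAP tumours array 2 stood apart for Pdxdc1 at 8.37 (next 7.84), Fbxw22 at 9.40 (next 7.86) and Isl1 at 4.67, the other 5 arrays being at the floor of 3.37. Wnt4 was at 3.37 on hGFAP array 6 (next 5.76), and Gli1 was at 6.36 on hGFAP array 4 (next 8.43). In tissue without tumour, array 6 stood apart for Zfp874a at 3.46 (next 5.73), Otx1 at 3.53 with the others at the floor, and Tlx3 at 3.63 (next 5.96).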

How the results depend on the processing

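With limma, no gene was called under the alternatives run, apart from 3 settings. Without a filter 3 genes were called higher and 14 lower in Tlx3 tumours, of 18193 tested, among them Th (adjusted p = 0.032) and Fbxw22 (adjusted p = 0.0398). Leaving out 1 array gave 0 to 1 genes called higher and 0 to 4 lower, namely Ttr without Math1 replicate 2, and Cap1, Cysrt1, Hoxa9 and Ildr2 lower without Tlx3 replicate 3. The count of genes without overlap was 3301 without scaling (89.6% higher, median of all genes 0.29), 3176 with median scaling (90.6% higher, median 0.27), against 43.4% higher under the trimmed mean and 51.5% under quantile normalisation. It was 2878 without a filter. Leaving out 1 array leaves fewer values to overlap, and the count ran from 2572 to 3350, with 2709 without Tlx3 replicate 1, 3196 without Tlx3 replicate 3, 2703 without Math1 replicate 1 and 3350 without Math1 replicate 3. The cause of the other shifts was not tested. Taking the mean of all its probe sets turned Pdxdc1 to -0.83, and also H2-K1 to -0.17, Nsf to -0.07 and Reln to -0.01. Same-numbered arrays had deviations from their group means correlating at -0.25, 0.32 and -0.19, and 2 of 6 arrays correlated best with their own number. The highest values between groups were 0.36 for Tlx3 array 1 with Math1 array 3, and 0.32 for Tlx3 array 2 with Math1 array 2 and for Tlx3 array 3 with Math1 array 1. Deviations within groups of 3 depend on each other, so these values cannot settle whether arrays are paired. With the replicate number as a block, 0 genes were called higher and 0 lower (smallest adjusted p = 0.294). With all 27 arrays in the fit the smallest adjusted p was 0.735, and 0.631 when the 3' to 5' ratio was added as a covariate. With the 6 arrays it was 0.289 in the main fit, 0.0863 without the trend and robust fit and 0.138 with array weights. It was 0.511 with high or low Xist as a covariate, also on the 6 arrays. The Xist covariate was chosen after seeing the data, as were the filters of the probe set test. Signals near the floor set the limit on what can be compared.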

Other observations

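Genes next to the drivers were counted, with 20 tested genes on each side in the gene order of RefSeq (assembly GRCm38.p6, used for order only), a window chosen after seeing the data. Around Atoh1, 12 of 40 genes (30%) had no overlap between Tlx3 and Math1 tumours, 7 higher and 5 lower in Tlx3 tumours, beside 16% of all genes. They included Gprin3 (2.04), Herc6 (-1.23), Cd8a (-0.63) and Vopp1 (0.57). Around Tlx3, 3 of 40 (7.5%) had none. After quantile normalisation the counts were 12 of 40 and 2 of 40.

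For 9809 of 10814 genes (90.7%) the wider of the ranges among tumours of 1 driver exceeded the difference between the drivers. A range of single arrays was set against a difference of means of 3, and no chance level was worked out. The share therefore does not show which variation is larger. Some of the genes with a wide range follow. Cap1, an actin regulator, stood at 5.19, 4.80 and 7.89 in Tlx3 tumours, against 7.96, 8.34 and 7.73 in Math1 tumours. The interferon-inducible gene Mndal stood at 9.02, 8.40 and 8.80 in Tlx3 tumours, against 3.64, 8.23 and 8.27 in Math1 tumours, with Math1 array 1 alone low. The MHC class II gene H2-Ab1 stood at 7.26, 6.80 and 3.37 in Tlx3 tumours, against 4.44, 3.63 and 6.05 in Math1 tumours. The neutrophil genes S100a8 and S100a9 stood 1.06 and 0.99 higher in Tlx3 tumours with overlap, with their lowest Tlx3 values on array 2.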
